A study of Mus musculus with 11 samples.

Results

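The 10 adhesion genes followed here in mouse embryonic stem cells lie apart from the clustered protocadherins and are the non-clustered protocadherins Pcdh1, Pcdh7, Pcdh8, Pcdh9, Pcdh10, Pcdh17, Pcdh18 and Pcdh19, and the classical cadherins Cdh1 and Cdh2. They were taken by symbol from a list made with earlier results of these data known, and all 10 were among the 55228 symbols of the deposited tables. Of the 10 genes, 5 had enough reads to be tested (Pcdh1, Pcdh8, Pcdh19, Cdh1 and Cdh2). The clustered protocadherins, of which 57 were in the tables, served as the contrast.

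All 11 libraries came from EN52.9.1 (CTCF-AID), a single line grown in serum with leukemia inhibitory factor, in which the endogenous CTCF protein carries a degron. CTCF binds DNA through zinc fingers and helps to fold chromosomes into loops. Indole-3-acetic acid, an auxin analogue given at 500 µM, sets off the breakdown of the degron-tagged protein. EV cells without auxin, whose genotype the labels give as untreated wild-type although they carry the degron like every other group, gave 3 libraries (EV untreated). EV cells depleted of endogenous CTCF with auxin gave 2 libraries (EV auxin), auxin-treated cells with FL CTCF put back gave 3 (FL auxin), and auxin-treated cells with CTCF of the H373R substitution put back gave 3 (H373R auxin). In their titles the H373R libraries are called ZF4. EV, FL and H373R are different cells of the line. Effects of the CTCF form and other differences between these cells cannot be told apart. The vector, its promoter and the hours of auxin are not given in the sources used here, and nothing says whether replicates were separate cultures, so p-values measure the spread between these libraries, which may be technical.

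Classical cadherins are calcium-dependent adhesion proteins that bind the same cadherin on the next cell and hold on to the actin skeleton through beta-catenin and alpha-catenin. Cdh1 encodes E-cadherin, the adhesion protein of epithelia and of naive stem cell colonies, and Cdh2 encodes N-cadherin, which takes its place in mesoderm and neural tissue. Non-clustered protocadherins are mostly known from the nervous system, where they act in adhesion and cell sorting. Unlike the protocadherins of the alpha, beta and gamma clusters, whose promoters are chosen with the help of CTCF, each has a locus of its own.

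Total counts ran from 13465241 (FL auxin replicate 2) to 29902246 (EV untreated replicate 1), and 16420 genes were tested. EV untreated replicate 1 stood apart from the other EV untreated libraries: the chi-square per degree of freedom was 16 and 15.1 against them, and at most 5.06 in the other pairs of replicates. Ctcf RNA lay at 294 to 344 CPM (read counts scaled to library size) in EV untreated, 359 to 364 in EV auxin, 328 to 350 in FL auxin and 306 to 330 in H373R auxin, and passed no test against EV untreated. The auxin system acts on the protein, so EV auxin gives no check of depletion, and no added Ctcf RNA was visible in FL auxin or H373R auxin; the labels alone say that CTCF was put back there. The 9 pluripotency markers summed to 12000 to 13200 TPM (abundance scaled to gene length and library size) in every library, a sum led by Dppa5a. Single markers moved: in FL auxin against EV auxin 4 of the 9 were higher and 2 lower, Nanog going from 1160 to 872 TPM and Zfp42 from 1470 to 1140. The 7 primitive endoderm markers summed to 18.7 to 19.9 TPM in EV untreated, 22.1 to 22.7 in EV auxin, 63.5 to 68.6 in FL auxin and 40.9 to 45.6 in H373R auxin, with none at 0, and all 7 were higher in FL auxin and in H373R auxin than in EV auxin. In bulk RNA, a change in the number of cells of a type and a change in RNA per cell cannot be told apart.

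Across genes, levels are compared as TPM. Cdh1 was by far the most abundant of the 10, at 528 ± 16.6 TPM in EV untreated (SD, n = 3). Pcdh1 came next at 8.45 TPM, then Cdh2 at 1.93, Pcdh19 at 0.409 and Pcdh8 at 0.208. The other 5 protocadherins lay between 0.0255 TPM (Pcdh7) and 0.111 TPM (Pcdh18), each resting on a handful of reads, and their order could not be resolved at this depth. Cdh1, Pcdh1 and Cdh2 kept this order in each of the 4 groups. Pcdh19 and Pcdh8 followed in that order in the means of the 4 groups, at 0.649 and 0.539 TPM in EV auxin, 0.820 and 0.525 in FL auxin, and 0.891 and 0.673 in H373R auxin.

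**Figure D1:**
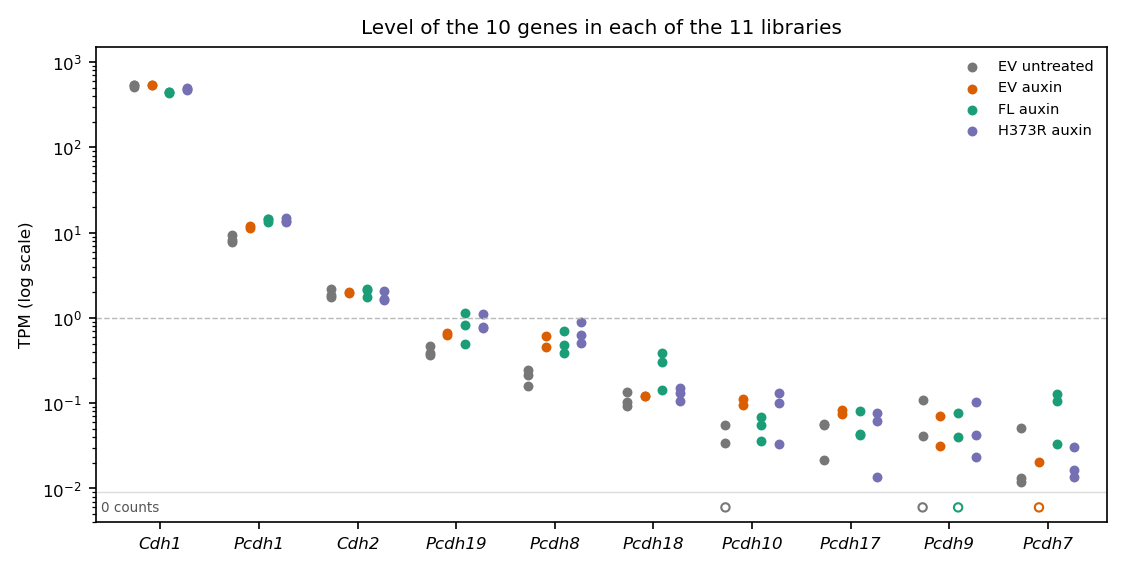
Level of each of the 10 genes in every library, in TPM on a log axis, coloured by group; the dashed line marks 1 TPM and open points at the foot are libraries with 0 counts. Cdh1 sits near 500 TPM throughout, Pcdh1 near 10, and the 5 untested protocadherins mostly below 0.3.

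Auxin alone was followed by higher Pcdh1 and Pcdh8 RNA, with Cdh1 and Cdh2 near their starting levels. Pcdh8 entered the test only through its auxin-treated libraries, which limits what its calls can show. Between EV auxin and EV untreated, 2 of the 5 tested genes were higher and 0 lower, where 11.3% of all tested genes were higher and 9.4% lower (20.7% in either direction). Between FL auxin and EV auxin, Pcdh1 was higher and Cdh1 lower, where 11.1% of all genes were higher and 13.4% lower (24.5%). Between H373R auxin and EV auxin, Pcdh1 was higher, where 10% of all genes were higher and 11.7% lower (21.7%). Between H373R auxin and FL auxin 0 of the 5 were higher and 0 lower, where 3.14% of all genes were higher and 2.82% lower (5.96%).

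Against EV untreated, Pcdh1, Pcdh8 and Pcdh19 were higher and Cdh1 lower, both in FL auxin, where 17.7% of all genes were higher and 19.2% lower (36.9%), and in H373R auxin, where 22.3% were higher and 22.1% lower (44.4%). These comparisons share their control libraries and are not independent of each other. Pcdh8 was below the test's entry level of 0.475 CPM in all 3 EV untreated libraries and was tested because of its auxin-treated ones, so the counts over the 5 genes are an account of them and no more. The median log2 difference of the 5 was 0.41, 0.079, 0.31 and 0.029 in the first 4 comparisons and 0.77 and 0.72 for FL auxin and H373R auxin against EV untreated, beside medians over all genes between -0.014 and 0.0087.

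**Figure D2:**
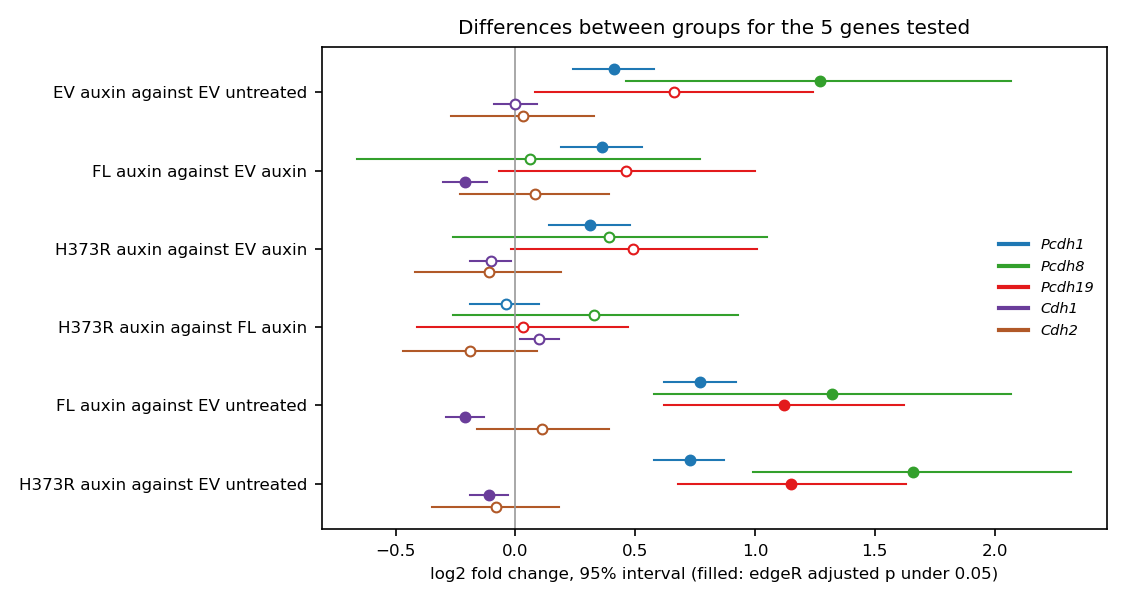
Log2 difference of the 5 tested genes in the 6 comparisons, with bars for the 95% interval of the edgeR fit and filled points where the adjusted p was under 0.05. Pcdh1 lies above 0 in every comparison except H373R auxin against FL auxin, and Cdh1 lies below 0 in both comparisons of FL auxin with EV cells.

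Pcdh1, a protocadherin also known from epithelia, was higher than in EV untreated in all 3 auxin-treated groups. The gene lies on chromosome 18 (GRCm38, 38185914 to 38212053, minus strand; GENCODE M21). Its level was 22.2, 18.4 and 18.7 CPM in the 3 EV untreated libraries, 26.1 and 26.8 in EV auxin, 34.9, 32.2 and 34.2 in FL auxin, and 35.0, 31.7 and 31.8 in H373R auxin. Every EV auxin library lay above every EV untreated library, and every FL and H373R library lay above both EV groups. FL auxin and H373R auxin overlapped.

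After auxin alone Pcdh1 was 1.33-fold higher, a log2 difference of 0.41 ± 0.087 (SE; edgeR adjusted p = 3.09e-03). In the cells with CTCF put back it was not lower than in EV auxin. It was a further 0.36 ± 0.086 higher on the log2 scale in FL auxin than in EV auxin (edgeR adjusted p = 7.71e-03). In H373R auxin it was 0.31 ± 0.085 higher than in EV auxin (adjusted p = 0.0167). Against EV untreated it was 1.71-fold higher in FL auxin (adjusted p = 3.30e-06) and 1.65-fold higher in H373R auxin (adjusted p = 2.62e-06). The 2 forms of CTCF differed by -0.04 on the log2 scale, with a 95% interval from -0.19 to 0.10 (adjusted p = 0.795).

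The steps between auxin-treated groups rest on 2 EV auxin libraries. Without EV auxin replicate 2 the auxin step of Pcdh1 was 0.38 (adjusted p = 0.0613), and without EV untreated replicate 1, the library that stood apart, it was 0.50 (adjusted p = 1.91e-05). The FL step no longer passed without EV auxin replicate 1 (0.34, adjusted p = 0.069) or replicate 2 (0.39, adjusted p = 0.0523), nor did the H373R step (adjusted p = 0.124 and 0.0935), which was also lost without H373R auxin replicate 1 (0.27, adjusted p = 0.067). Limma on log2 TPM called neither step. All 7 primitive endoderm markers were higher in the groups with CTCF put back, where Pcdh1 was highest, and 1 of 7 was higher after auxin alone. Their part in the Pcdh1 differences was not tested.

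**Figure D3:**
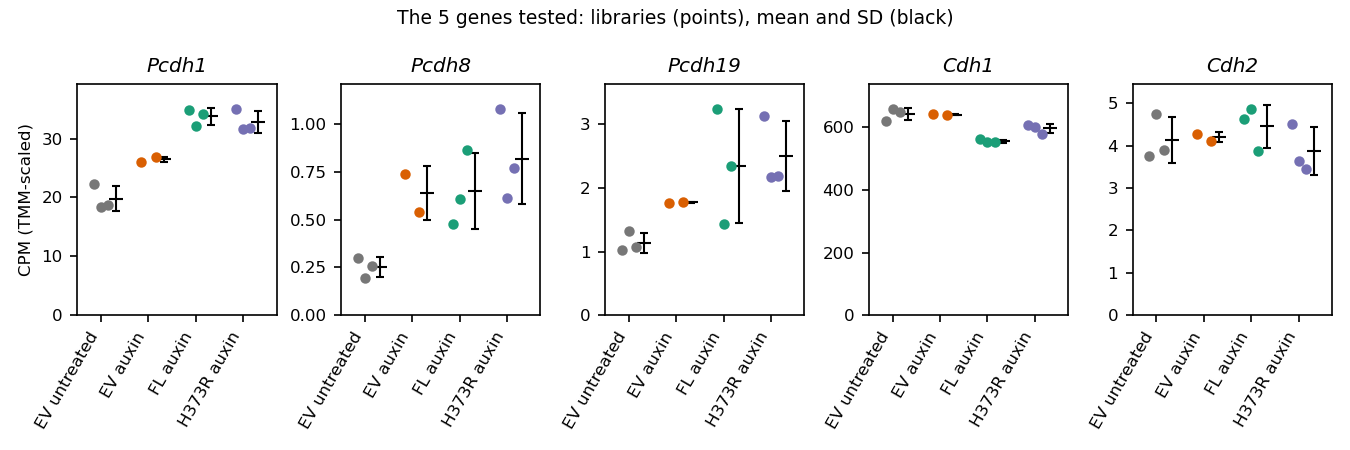
TMM-scaled CPM of the 5 tested genes in each library, with the group mean and SD, 1 panel per gene with its own axis. Pcdh1 steps up from EV untreated to EV auxin to the groups with CTCF put back, and Cdh1 is lowest in FL auxin, between 552 and 562 CPM.

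Pcdh1 lies 344.0 kb beyond the last gene of the protocadherin clusters, on the same chromosome, so its neighbours were examined within 500 kb of its start. This window was chosen after values were seen. After auxin alone, 10 of the 13 tested gamma-cluster genes in the window were lower and 0 higher, while Pcdh1 was higher. Some of these genes, such as Pcdhga7, had 3 counts or fewer in every library of a group. They were tested through other groups, so their direction is partly set by the filter. Of the 5 tested genes between the cluster and Pcdh1, 1 was higher (Arap3, 0.24 ± 0.074 on the log2 scale, adjusted p = 0.0281) and 0 lower. On the other side of Pcdh1, 2 of 7 were higher (Dele1 and Arhgap26) and 0 lower. After auxin alone 11.3% of all genes were higher and 9.4% lower.

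In FL auxin against EV auxin, 7 of the 13 gamma-cluster genes were higher, where 11.1% of all genes were. In H373R auxin against EV auxin 2 of the 13 were higher, where 10% of all genes were. In H373R auxin against FL auxin 5 of the 13 were lower, where 2.82% of all genes were. Some of these genes, such as Pcdhga7, again had 3 counts or fewer in every library of a compared group. Their counts are therefore partly set by the filter here too. Pcdh1 was not called between the 2 forms of CTCF. Pcdhgc3, a C-type gene of the gamma cluster 405.7 kb from Pcdh1, had steps from EV auxin near those of Pcdh1 and a smaller auxin step. It was 0.54 ± 0.087 higher on the log2 scale in FL auxin than in EV auxin (adjusted p = 4.61e-04) and 0.38 ± 0.086 higher in H373R auxin (adjusted p = 5.41e-03), and the auxin step was 0.15 ± 0.088 (adjusted p = 0.274).

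**Figure D4:**
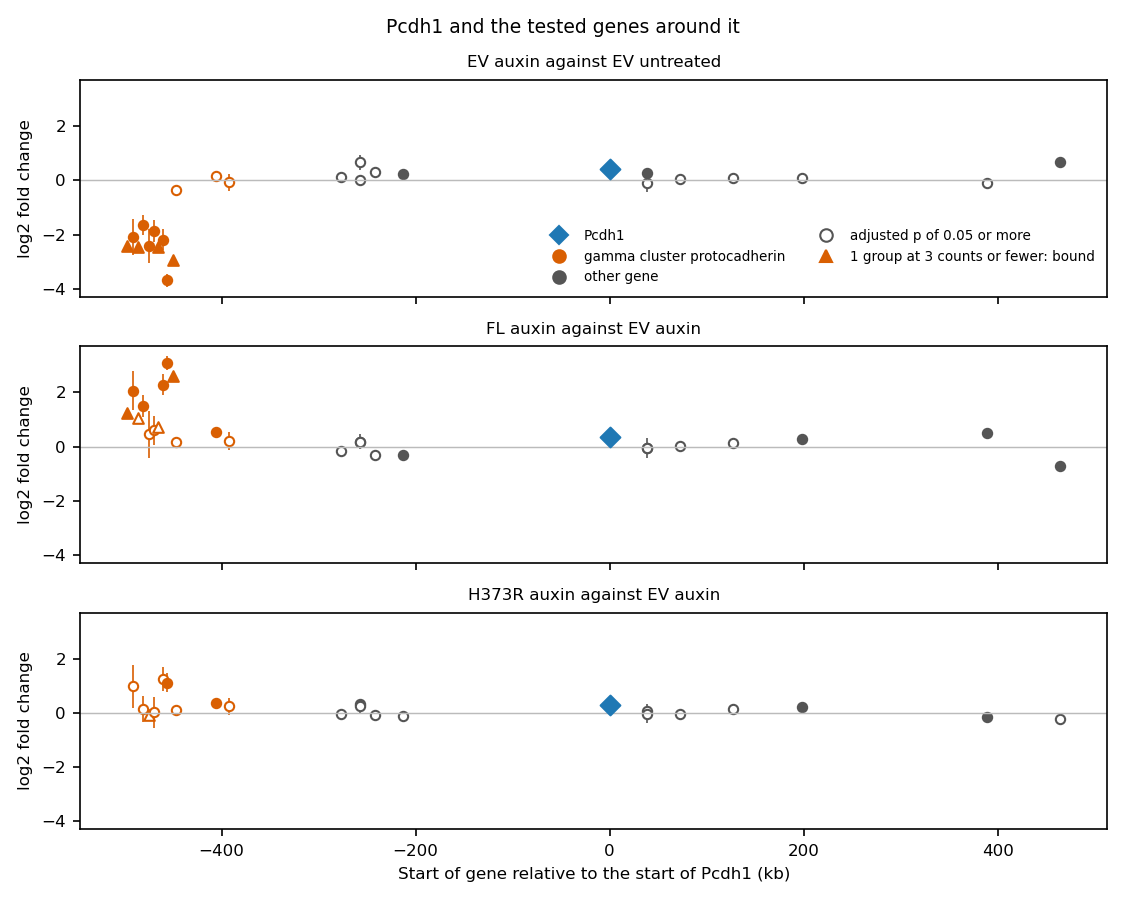
Log2 difference of Pcdh1 and the tested genes within 500 kb of its start against distance from that start in kb (negative towards the clusters), with SE bars, triangles as bounds for genes with 3 counts or fewer in every library of a group, and genes whose bound is 0 left out. Of 13 gamma-cluster genes, at 392.5 to 497.3 kb, 10 are lower after auxin alone, while Pcdh1 is higher.

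Over the whole of the clusters, 16 of 57 genes were tested. After auxin alone 13 were lower and 0 higher, with a median log2 difference of -2.3 (-2.1 with the 7 genes at 3 counts or fewer set at their bound). Those 7 genes were below the test's entry level in that group and were tested through other groups. The split of 13 lower and 0 higher is therefore partly set by the filter. Of the 16 tested genes, 7 were higher in FL auxin than in EV auxin, 2 in H373R auxin than in EV auxin, and 5 were lower in H373R auxin than in FL auxin. The shares of all genes were 11.1%, 10% and 2.82%. In these comparisons 7, 8 and 4 of the 16 had 3 counts or fewer in every library of a compared group. These counts are thus partly set by the filter as well. The median log2 difference in FL auxin against EV auxin was 1.9, and 0.89 with such genes set at their bound. Of the 5 tested non-clustered and classical genes 0 were lower after auxin alone, where 9.4% of all genes were, so the count does not set them apart from other genes. Pcdh8, tested through its auxin-treated libraries, had little room to be lower.

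Pcdh8, known as paraxial protocadherin, takes part in the cell movements of mesoderm formation. It is a single-exon gene in the merged annotation, on chromosome 14 (79766775 to 79771312, minus strand). It gave 9, 4 and 7 reads in the EV untreated libraries, 13 and 13 in EV auxin, 10, 8 and 17 in FL auxin, and 25, 13 and 20 in H373R auxin. In CPM every auxin-treated library lay above every EV untreated one: 0.196 to 0.300 in EV untreated against 0.477 or more elsewhere. The auxin-treated groups overlapped each other.

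Pcdh8 was 2.41-fold higher in EV auxin than in EV untreated (log2 difference 1.27 ± 0.41, edgeR adjusted p = 0.0403) and 3.15-fold higher in H373R auxin (1.66 ± 0.34, adjusted p = 1.05e-03). In FL auxin the log2 difference was 1.32 ± 0.38 (adjusted p = 0.0127). Pcdh8 was tested because its auxin-treated libraries passed the filter. Its p-values against EV untreated thus come from a gene admitted by the groups where it was high, and are descriptive. In FL auxin Pcdh8 lay 0.06 ± 0.37 from EV auxin, and H373R auxin differed from FL auxin by 0.33, with an interval from -0.26 to 0.93. The auxin call was thin: it was lost in DESeq2 (adjusted p = 0.0989), with only the compared libraries (0.061), and without EV auxin replicate 1 (1.06, adjusted p = 0.231) or replicate 2 (1.5, adjusted p = 0.1). Without EV untreated replicate 2 or 3, FL auxin replicate 2 or H373R auxin replicate 3 it was lost as well, and without EV untreated replicate 1 it held (1.40, adjusted p = 0.0312). The FL auxin call was lost without FL auxin replicate 3 (1.03, adjusted p = 0.0898). Of the 8 tested genes within 500 kb, 3 were higher and 1 lower after auxin alone, and 1 was higher and 0 lower in FL auxin and in H373R auxin against EV untreated. In these comparisons 20.7%, 36.9% and 44.4% of all genes were called. Rgcc, a cell cycle regulator 469.7 kb away, was higher in the same 3 groups, by 1.23 ± 0.32, 1.41 ± 0.29 and 1.70 ± 0.27 on the log2 scale.

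Markers of mesendoderm, in which Pcdh8 is known to be active, summed to 11.5 to 12.4 TPM over 6 genes in EV untreated, 15.6 to 15.7 in EV auxin, 16.5 to 21.5 in FL auxin and 16 to 18.4 in H373R auxin, with none at 0. Against EV untreated, 1 of the 6 was higher in EV auxin, 2 in FL auxin and 4 in H373R auxin, and 0 were lower. The shares of all genes that were higher were 11.3%, 17.7% and 22.3%. Eomes and Lhx1 had lower means in EV auxin than in EV untreated. The part of these markers in the Pcdh8 difference was not tested.

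Pcdh19, an X-linked protocadherin whose human counterpart is mutated in an epilepsy of females, was higher in both groups with CTCF put back than in EV untreated. It spans 133582860 to 133688987 on chromosome X, minus strand. Reads numbered 31, 27 and 29 in EV untreated, 31 and 43 in EV auxin, 68, 19 and 46 in FL auxin, and 73, 46 and 57 in H373R auxin. In CPM these were 1.03, 1.32 and 1.07 in EV untreated, 1.77 and 1.78 in EV auxin, 3.24, 1.44 and 2.35 in FL auxin, and 3.14, 2.17 and 2.19 in H373R auxin. All auxin-treated libraries lay above all EV untreated ones, and FL auxin replicate 2, the shallowest library, lay below both EV auxin libraries.

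Pcdh19 was 2.18-fold higher in FL auxin than in EV untreated (edgeR adjusted p = 3.06e-03) and 2.22-fold higher in H373R auxin (adjusted p = 1.29e-03). The auxin step alone was 0.66 ± 0.30 on the log2 scale and did not pass (adjusted p = 0.136). H373R auxin and FL auxin differed by 0.03, with an interval from -0.41 to 0.47. On log2(TPM + 1) with limma neither call against EV untreated was made (adjusted p = 0.14 and 0.077). Without EV untreated replicate 1 the log2 differences were 1.06 and 1.07, and both calls held. Tspan6, a tetraspanin 209.4 kb away, was 1 of 4 tested neighbours within 500 kb. It fell by 2.42 on the log2 scale after auxin alone (SE 0.12, edgeR adjusted p = 2.48e-09). It was 1.55 ± 0.14 higher in FL auxin than in EV auxin (adjusted p = 2.32e-06). In H373R auxin it was lower than in FL auxin (-1.21 ± 0.11, adjusted p = 1.06e-05).

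The study's title concerns CTCF and G-quadruplexes, four-stranded DNA folds of guanine runs, so the 250 bases before the start were read for the 7 members found in the RefSeq promoter table (GRCm38.p6). The windows of the 2 called genes among them are shown, on the gene's strand, 5′ to 3′. Capitals in Pcdh8 (chr14:79771313-79771562, minus strand) mark TATAAA, which ends 24 bases before the start, and capitals in Pcdh19 (chrX:133688994-133689243, minus strand) mark 2 stretches that hold the G-quadruplex pattern on the opposite strand.
Pcdh8: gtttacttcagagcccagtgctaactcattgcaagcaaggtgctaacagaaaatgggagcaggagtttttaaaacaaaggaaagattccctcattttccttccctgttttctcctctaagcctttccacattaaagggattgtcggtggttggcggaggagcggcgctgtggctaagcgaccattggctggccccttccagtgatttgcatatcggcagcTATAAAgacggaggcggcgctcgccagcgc
Pcdh19: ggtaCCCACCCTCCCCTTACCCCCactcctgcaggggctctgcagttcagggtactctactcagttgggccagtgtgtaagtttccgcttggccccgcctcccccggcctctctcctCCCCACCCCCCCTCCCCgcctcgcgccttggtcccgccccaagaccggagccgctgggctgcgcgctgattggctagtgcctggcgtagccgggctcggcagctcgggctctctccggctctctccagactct

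The Pcdh8 window was 51.2% G or C and the Pcdh19 window 69.2%, beside a median of 52.4% over 32851 windows. The pattern sought was 4 or more runs of GGG, 1 to 7 bases apart, on either strand. It was in the windows of Pcdh7, Pcdh18 and Pcdh19 and in 16.7% of all windows. Bases between runs could themselves be G, so a long run could be read as more than 1, as in the Pcdh19 stretch nearer the start. TATAAA, on either strand, was in the Pcdh8 window alone and in 12.4% of all. The E-box letters CANNTG were in the Pcdh19 window alone of the 7 (as CAGTTG), and in 66.2% of all windows. Matches are letters in a window and not measured sites.

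The 5 protocadherins below the test's entry level gave 0 to 13 reads per library, and 3 reads, the limit that a count of 0 allows, stood for 0.0999 to 0.228 CPM. Pcdh10, known from the growth of nerve tracts through the forebrain, gave 7, 3 and 0 reads in EV untreated, 7 and 11 in EV auxin, 5, 4 and 3 in FL auxin, and 13, 3 and 11 in H373R auxin. Pooled over a group this was 0.129 CPM in EV untreated (exact 95% Poisson interval 0.0617 to 0.237) and 0.432 in EV auxin (0.256 to 0.683), with 0.223 in FL auxin (0.115 to 0.390) and 0.383 in H373R auxin (0.253 to 0.558). The EV auxin and H373R auxin intervals lay above that of EV untreated. With no count filter, edgeR over 30501 genes gave log2 differences of 1.70 ± 0.58 (adjusted p = 0.0318) and 1.54 ± 0.53 (adjusted p = 0.0161) for these, and no other of the 5 genes passed in any of the 6 comparisons. The Poisson intervals pool the reads of a group and leave out the spread between its libraries. They cover counting error at most, because reads that carry no molecular identifier can be copies of a molecule.

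Pcdh7 gave 1, 3 and 1 reads in EV untreated, 1 and 0 in EV auxin, 2, 5 and 6 in FL auxin, and 2, 1 and 1 in H373R auxin. Its pooled level in FL auxin, 0.242 CPM (0.129 to 0.414), stood beside 0.0240 (0.000608 to 0.134) in EV auxin, and the difference did not pass without a filter (adjusted p = 0.0608). Pcdh18 gave 12, 6 and 4 reads in FL auxin and 3 to 5 in each other library. Pcdh9 gave 0 to 6 reads per library, with pooled levels from 0.0744 to 0.103 CPM, and Pcdh17 gave 1 to 7, with pooled levels from 0.154 to 0.264 CPM. Differences in these genes were not detectable at this depth. Exons of Pcdh7, Pcdh8, Pcdh10 and Pcdh19 overlap a gene on the other strand in GENCODE M21. Those of Pcdh7, Pcdh8 and Pcdh10 had 0 counts in every library, and the strand setting of the counting is not given in the sources used here.

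Cdh1, the E-cadherin gene, was lower in FL auxin than in either EV group. It lies on chromosome 8 (106603351 to 106670246, plus strand, 16 exons). The libraries gave 621, 658 and 648 CPM in EV untreated, 643 and 639 in EV auxin, 562, 552 and 553 in FL auxin, and 609, 601 and 580 in H373R auxin. Every FL library lay below every other library, and every H373R library lay between the FL libraries and the EV libraries.

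In FL auxin Cdh1 fell by 0.21 on the log2 scale against EV auxin (SE 0.045, edgeR adjusted p = 4.03e-03) and by the same amount against EV untreated (SE 0.041, adjusted p = 9.82e-04). Auxin alone gave a difference of -0.0019, with an interval from -0.09 to 0.09 (adjusted p = 0.984). H373R auxin differed from EV auxin by -0.10 ± 0.045 (adjusted p = 0.118) and from FL auxin by 0.10 ± 0.041 (adjusted p = 0.162, interval 0.02 to 0.18), so neither difference passed although the libraries did not overlap. Against EV untreated the H373R difference of -0.11 ± 0.041 passed narrowly (adjusted p = 0.0456) and was lost under upper quartile scaling, without the count filter, with only the compared libraries, and when any single library was left out other than EV untreated replicate 1 (-0.14, adjusted p = 6.66e-03), EV auxin replicate 2 and H373R auxin replicate 1. The 2 FL calls of Cdh1 held in every alternative run.

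Genes of chromosome 8 in general were lower in the groups with CTCF put back than in EV auxin. The median log2 difference of its 867 tested genes in FL auxin against EV auxin was -0.12, with 72% of them below 0, and the medians of the 19 other chromosomes ranged from -0.16 to 0.082. In H373R auxin against EV auxin the chromosome 8 median was -0.076 (63.2% below 0). Between H373R auxin and FL auxin it was 0.043, the highest of all chromosomes. After auxin alone it was 0.014. Cdh1 followed the direction of its chromosome in the comparisons where the chromosome's median lay apart, and the part of this shift in the Cdh1 difference was not tested.

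**Figure D5:**
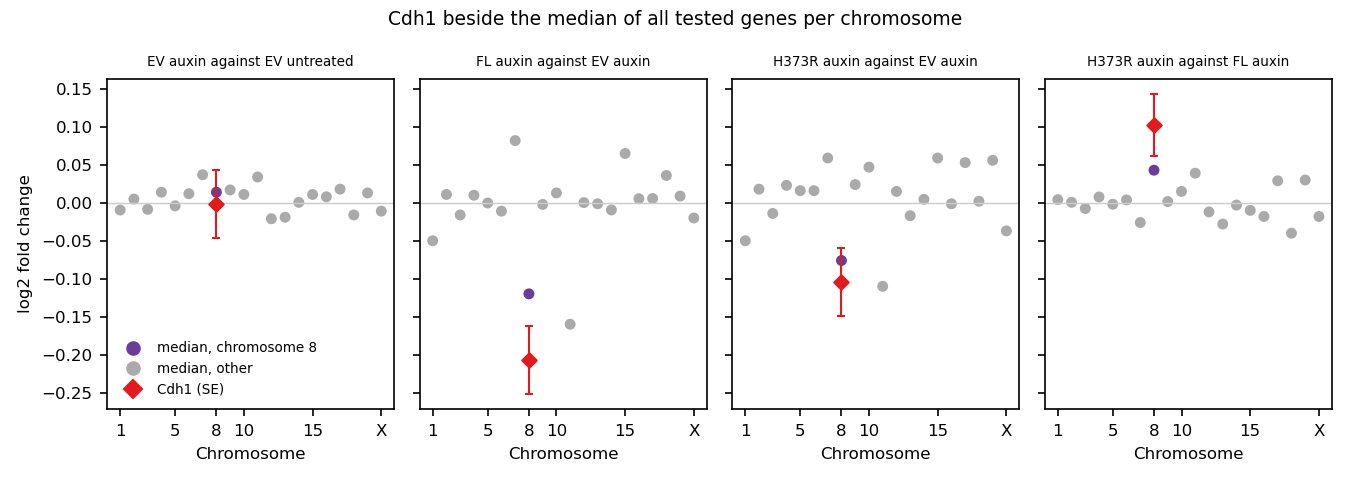
Median log2 difference of the tested genes of each chromosome in 4 comparisons, with chromosome 8 marked and the value of Cdh1 with its SE. Chromosome 8 has the second lowest median in FL auxin against EV auxin (-0.12) and the highest in H373R auxin against FL auxin (0.043); Cdh1 lies at -0.21 and 0.10.

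Within 500 kb of Cdh1, 20 genes were tested, of which 0 were higher and 3 lower in FL auxin than in EV auxin (Smpd3, Zfp90 and Sntb2). The share of all genes lower there was 13.4%, near that of these neighbours. The nearest cadherin is Cdh3, the P-cadherin gene, 92.5 kb from the start of Cdh1. Cdh3 was lower after auxin alone (-0.24 ± 0.054 on the log2 scale, adjusted p = 4.30e-03), where Cdh1 was not, and was lower in FL auxin than in EV untreated (-0.33 ± 0.048, adjusted p = 9.22e-05).

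Cdh2, the N-cadherin gene (chromosome 18, 16588877 to 16809246, minus strand), passed in none of the 6 comparisons. It was at 3.76, 4.75 and 3.89 CPM in EV untreated, 4.28 and 4.11 in EV auxin, 4.63, 4.86 and 3.88 in FL auxin, and 4.52, 3.63 and 3.46 in H373R auxin, and the ranges of all groups overlapped. The difference with the largest size was that of H373R auxin from FL auxin, -0.19 ± 0.14 on the log2 scale, with an interval from -0.47 to 0.09 (adjusted p = 0.488). No tested gene lay within 500 kb of Cdh2.

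The ratio of Cdh1 to Cdh2, which falls when epithelial cells become mesenchymal, was 291, 245 and 293 in EV untreated, 265 and 274 in EV auxin, 214, 200 and 252 in FL auxin, and 238, 292 and 296 in H373R auxin, taken from TPM. FL auxin replicates 1 and 2 had the lowest ratios of the 11. Replicate 3 lay below both EV auxin libraries and within the ranges of EV untreated and H373R auxin. The mean log2 ratio in FL auxin differed from EV untreated by -0.32 and from EV auxin by -0.29, and the H373R auxin mean lay 0.31 above it, each with a two-sided exact permutation p of 0.2 (0.4 adjusted over 6 comparisons). With these group sizes no p under 0.1 was possible.

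Partners of the cadherins were called in both directions in FL auxin and H373R auxin against EV auxin, and only lower after auxin alone. Of all tested genes, 11.3% were higher and 9.4% lower after auxin alone (20.7% in either direction). Against EV auxin, 11.1% were higher and 13.4% lower in FL auxin (24.5%), and 10% higher and 11.7% lower in H373R auxin (21.7%). Of 15 tested catenins and adherens junction genes, 0 were higher and 4 lower after auxin alone, 2 were higher and 3 lower in FL auxin than in EV auxin, and 3 were higher and 2 lower in H373R auxin than in EV auxin, with median log2 differences of -0.068, 0.045 and -0.0061. Ctnnb1 (beta-catenin) stood at 750 ± 24.7 TPM and Ctnna1 (alpha-catenin) at 401 ± 9.36 in EV untreated (SD, n = 3), in the same range as Cdh1. Nectin4, an adhesion protein of the immunoglobulin family, fell by 0.83 after auxin alone (SE 0.11, adjusted p = 8.91e-05) and by a further 0.55 in FL auxin (SE 0.14, adjusted p = 8.15e-03). Jup, plakoglobin, was 0.33 ± 0.074 higher in H373R auxin than in EV auxin (adjusted p = 5.21e-03) and 0.27 ± 0.066 higher than in FL auxin (adjusted p = 0.024). Pkp4, a plakophilin of junctions, fell by 0.17 after auxin alone (SE 0.05, adjusted p = 0.0266). The low-level members Ctnna2 and Ctnnd2, neural catenins named here after their values were seen, were lower too. Ctnna2 stood at 0.422 TPM in EV auxin and fell by 1.07 in FL auxin (SE 0.36, adjusted p = 0.0407) and by 1.31 in H373R auxin (SE 0.35, adjusted p = 0.0144), and Ctnnd2 fell by 0.76 after auxin alone (SE 0.2, adjusted p = 0.0125).

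Of 20 further cadherins 10 were tested: 1 was higher and 1 lower after auxin alone, 0 changed in FL auxin against EV auxin, and 1 was higher in H373R auxin than in EV auxin. In these comparisons 20.7%, 24.5% and 21.7% of all genes were called. Cdh22, a brain cadherin, rose from 2.21 TPM in EV untreated to 3.28 in EV auxin (log2 difference 0.55 ± 0.18, adjusted p = 0.0428) and stood at 5.80 in H373R auxin (1.39 ± 0.14 against EV untreated, adjusted p = 2.20e-06). Cdh7, of type II, was lower in FL auxin than in EV untreated (-1.36 ± 0.48, adjusted p = 0.0392), at 0.0606 against 0.164 TPM, and rested on few reads. In H373R auxin, with at most 3 reads in any library, it was at 0.042 TPM. Cdh7 was tested through its EV untreated libraries, where it was highest, so its call against them is descriptive. None of 4 further non-clustered protocadherins (Pcdh11x, Pcdh12, Pcdh15 and Pcdh20) had enough reads to be tested. Of 7 tested Fat, Dachsous and Celsr genes, the giant cadherins of planar polarity, 1 was higher and 3 lower in FL auxin than in EV auxin, and likewise in H373R auxin. The shares of all genes called were 24.5% and 21.7% in these 2 comparisons. Fat2 differed by -0.84 ± 0.12 and -0.79 ± 0.11 there (adjusted p = 1.35e-04 and 2.49e-04), and Celsr2 by -0.74 ± 0.13 and -0.69 ± 0.12 (adjusted p = 6.67e-04 and 1.18e-03). Fat1 was lower in H373R auxin than in EV untreated (-0.49 ± 0.083, adjusted p = 2.20e-04).

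Among 12 tested transcription factors known to act on Cdh1 and Cdh2, 1 was higher and 2 lower after auxin alone, and 2 were higher and 1 lower in FL auxin than in EV auxin. These counts lie near the shares of all genes called, 20.7% and 24.5%. Zeb1, a repressor of Cdh1, fell by 0.41 after auxin alone (SE 0.081, adjusted p = 1.99e-03), was 0.36 ± 0.084 higher in FL auxin than in EV auxin (adjusted p = 6.24e-03) and was lower in H373R auxin than in FL auxin (-0.34 ± 0.074, adjusted p = 0.0111). Grhl2, an activator of Cdh1 in epithelia, was 0.38 ± 0.085 higher after auxin alone (adjusted p = 4.88e-03) and lower than in EV auxin in both FL auxin (-0.66 ± 0.089, adjusted p = 1.12e-04) and H373R auxin (-0.52 ± 0.086, adjusted p = 7.24e-04). Tcf4 fell by 0.30 after auxin alone (SE 0.078, adjusted p = 0.0126).

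Of 12 proteases that cut cadherins or their precursors, all tested, 3 were higher and 0 lower after auxin alone, and 5 were higher and 1 lower in FL auxin as in H373R auxin against EV auxin. The shares of all genes that were higher were 11.3% after auxin alone, 11.1% in FL auxin and 10% in H373R auxin. Furin and Pcsk6, proprotein convertases, were 0.46 ± 0.083 and 0.68 ± 0.06 higher in FL auxin than in EV auxin (adjusted p = 9.44e-04 and 2.60e-06). Mmp14, a membrane metalloprotease, was 0.41 ± 0.07 higher there (adjusted p = 6.85e-04) and lower in H373R auxin than in FL auxin (-0.31 ± 0.061, adjusted p = 6.74e-03). Of 9 genes of the WAVE complex, an actin regulator that binds the tails of several protocadherins, 0 were higher and 3 lower after auxin alone: Nckap1 (-0.60 ± 0.065, adjusted p = 9.23e-06), Cyfip1 (-0.16 ± 0.051, adjusted p = 0.0378) and Cyfip2 (-0.28 ± 0.065, adjusted p = 5.80e-03). After auxin alone 9.4% of all genes were lower.

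The genes whose pattern over the 11 libraries lay nearest to a member were found among 12723 genes by the root mean square difference of log2 CPM, each gene centred on its own mean. For Pcdh1 they were Rhobtb1 (0.0546) and Dbn1 (0.066), where Pcdh1 itself varied with an SD of 0.348. For Cdh1 they were Acly (0.0267) and Slc6a6 (0.0308), beside an SD of 0.0947. For Pcdh8 the nearest, Nfkbie (0.235) and Stbd1 (0.238), were less close, beside an SD of 0.640.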

How the data were processed

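Column-purified RNA went into 11 strand-specific libraries for Illumina sequencing, per the labels' protocols. The authors deposited raw counts per gene symbol, and TPM values that held the same reads scaled by 1 length per gene. The submitters' processing notes name featureCounts, Subread 2.0.3, DESeq2, mm10 and GRCm38, with no roles; the aligner, the annotation and the strand setting are not given in the sources used here. Gene positions are from GENCODE M21 and promoter windows from RefSeq (GRCm38.p6).

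edgeR 4.0.16 (R 4.3.3) was run on the counts: TMM scaling, the filterByExpr filter by group (a minimum of 10 counts, here 0.475 CPM, in at least 2 libraries; 16420 genes), a group-means model over all 11 libraries, the quasi-likelihood F test, Benjamini-Hochberg adjustment over all tested genes and a threshold of 0.05. A call of "higher" or "lower" means past this threshold. Intervals of log2 differences are 95% from the fit's SE, and group means and SDs are of CPM after TMM scaling. Total counts of 13465241 to 29902246 limit precision for genes with few reads. No column belonged to other samples. The members and lists were chosen with earlier results of these data known. Named genes are the members, from each list the 3 genes lowest in adjusted p among those past 0.05, and the 2 genes nearest in pattern to each of the 3 members with the smallest adjusted p; neighbours of members and the levels of Ctnnb1 and Ctnna1 were added after values were seen. Markers of neural, trophoblast and fibroblast cells were also summed and stand in the closing section.

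Other settings tried were upper quartile and RLE scaling, the DESeq2 1.42.0 Wald test, no count filter or a mean of at least 10 counts, fits restricted to the compared groups, a block for replicate number, limma 3.58.1 on log2(TPM + 1) of genes reaching a TPM of 1 in 2 libraries, the same with 0.1 added or unfiltered, and omission of single libraries. In simulated counts for 16420 genes, 200 of them changed 2-fold in the EV auxin columns, edgeR recovered 85.0% with 12 false calls, DESeq2 79.0% with 6 and limma 78.5% with 9. The simulated spread followed expression level alone, with no library standing apart as EV untreated replicate 1 did. The 2-fold changes were larger than the steps of Pcdh1 and Cdh1, so recovery of those steps was not measured.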

Additional observations from a re-analysis of the deposited data

How the results depend on the processing

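Calls in the members depended on the 2 EV auxin libraries and on reads per gene. Of the tested members, 1 was called in EV auxin against EV untreated under DESeq2, with only the compared libraries and in the 3 limma fits on TPM. The 3 limma fits also called 1 in FL auxin against EV auxin and 2 in FL auxin against EV untreated, and with either pseudocount limma called 2 in H373R auxin against EV untreated. Limma without the TPM filter called 0 in H373R auxin against EV auxin, and Cdh1 passed there in the 2 filtered limma fits at -0.14. Leaving out 1 library at a time gave 0 to 2, 1 to 2, 0 to 1, 0 to 0, 3 to 5 and 3 to 4 called members, for EV auxin against EV untreated, FL and H373R auxin against EV auxin, H373R auxin against FL auxin, and FL and H373R auxin against EV untreated. For all genes these were 1569 to 5444, 1879 to 5800, 1502 to 5397, 510 to 2323, 4776 to 7706 and 6012 to 8927, beside 3392, 4016, 3570, 979, 6052 and 7292 with every library. The highest came without EV untreated replicate 1 (5444, 5397 and 2323 where they moved most), and the lowest against EV auxin without either of its libraries (2036 and 1569, 2186 and 1879, 1502 and 1536). For H373R auxin against FL auxin, 510 to 617 came without FL auxin replicate 2 or 3 or any H373R auxin library. With only the compared libraries 2016 genes were called in EV auxin against EV untreated, 5909 in H373R auxin against EV auxin and 1815 in H373R auxin against FL auxin, and limma without the TPM filter called 2335 and 588 in the last 2; the fits differ in genes and libraries, and the cause was not tested. The values that turned sign were not called on either side. For Cdh1 in EV auxin against EV untreated these were 0.00 with upper quartile scaling and 0.02 in the 3 limma fits, with -0.04 to 0.01 on leaving out libraries. For Cdh2 in the same comparison it was -0.04 under the block (-0.04 to 0.12 on leaving out libraries). For Pcdh8 in FL auxin against EV auxin they were -0.07 under the block and -0.02 in limma without a filter (-0.24 to 0.28 on leaving out libraries). Leaving out libraries also turned Pcdh19 in H373R auxin against FL auxin (-0.17 to 0.34) and Cdh2 in H373R auxin against EV untreated (-0.22 to 0.02). Same-numbered libraries correlated at -0.087 to 0.28 in their deviations (3 of 15 pairs over 0.1) and differently numbered ones at -0.20 to 0.13. Between EV untreated and FL auxin the same-numbered pairs stood at 0.28, 0.12 and 0.096, and the differently numbered ones at -0.20 to 0.071. The deviations of the 2 EV auxin libraries mirror each other and carry no information on this. Whether same-numbered libraries were paired was not settled. With the replicate block, 2, 2, 1, 0, 4 and 3 members and 3197, 3978, 3532, 942, 6142 and 7436 genes were called in the 6 comparisons, and Cdh1 in H373R auxin against EV untreated lost its call (-0.11, adjusted p = 0.0601). Pcdh1 kept its calls against EV untreated in FL auxin and H373R auxin, and Cdh1 its FL calls, in every alternative run. Depth limits the 5 untested protocadherins most, at 0 to 13 reads per library.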

Other observations

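Markers of other cell types were summed over each library. The 7 neural markers summed to 356 to 422 TPM in EV untreated, 378 to 388 in EV auxin, 291 to 330 in FL auxin and 328 to 339 in H373R auxin, with Dcx at 0 in both EV auxin libraries and in the H373R auxin libraries, where Neurog2 was at 0 too. This sum was mostly Tubb3 (365 TPM in EV auxin and 278 in FL auxin). Of 5 tested neural markers, 2 were higher and 2 lower in FL auxin than in EV auxin. Sox1 went from 7.25 to 17.2 TPM (edgeR adjusted p = 1.91e-07) and Neurod1 from 5.91 to 12.5 (adjusted p = 6.09e-06). In EV untreated Sox1 stood at 8.46 TPM and Neurod1 at 12.1, near its FL auxin level. Tubb3, Pax6 and Map2 had lower means in FL auxin than in EV auxin, Pax6 going from 1.23 to 0.578 TPM. The 7 fibroblast markers summed to 65.5 to 70.8, 65 to 71.5, 81.2 to 91.4 and 85.5 to 90.1 TPM in the same order, with Postn at 0 in FL auxin and H373R auxin. The 6 trophoblast markers summed to 8.13 to 10.9, 12.3 to 12.5, 9.20 to 13.9 and 10.5 to 13.4 TPM, with Tpbpa at 0 in every library.

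Spry4, an inhibitor of growth factor signalling 389.4 kb from Pcdh1 on the side away from the clusters, divided the forms of CTCF where Pcdh1 did not. It was 0.51 ± 0.047 higher on the log2 scale in FL auxin than in EV auxin (edgeR adjusted p = 3.50e-06) and lower in H373R auxin than in FL auxin (-0.65 ± 0.041, adjusted p = 3.32e-07). It was chosen after its values were seen.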
